A study of Mus musculus with 2 samples.

Results

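The immediate targets of the ERK pathway were compared between 2 lines of mouse osteosarcoma cells, a parental line and a metastatic subline. The set comprised 10 genes: the early response factors Egr1, Egr2, Ier2 and Ier3, the dual-specificity phosphatases Dusp1, Dusp4 and Dusp6, and the Sprouty genes Spry1, Spry2 and Spry4. They were taken from 18193 genes that had a probe set of their own on the array, by keeping every probe set whose only gene symbol in the platform annotation was 1 of the 10, which gave 15 probe sets. Dunn is the parental line, labelled non-metastatic, and LM8 is a subline of it, labelled highly metastatic. No treatment is labelled, both lines grew in the same medium (10% serum, 1% non-essential amino acids), and total RNA (10 µg per array) was hybridised to 1 Affymetrix mouse genome array per line. Each group is thus 1 established line, 1 culture and 1 array, and the labels give no passage or cell density. No difference below has a replicate check, no p-value is given, and having only 1 array for each line limits how precise any value is.

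Growth factors in serum bind receptor tyrosine kinases, which pass the signal through RAS, RAF and MEK to the kinase ERK. Active ERK enters the nucleus and switches on early response genes within minutes, without new protein synthesis, and their short-lived transcripts fade again when the signal stops. Some of the induced genes encode inhibitors of the same pathway: dual-specificity phosphatases remove the activating phosphates from MAP kinases, and Sprouty proteins dampen receptor signalling upstream of ERK. In bone-forming cells this pathway takes part in proliferation and in the response to growth factors and mechanical load.

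Serum response factor binds the CArG box and CREB binds the cAMP response element, and both elements are known from promoters of early genes. Promoter windows of RefSeq (mouse assembly GRCm38.p6, 250 bases before to 50 after the start) were at hand for 6 of the 10 genes: Egr2 with 5 windows, and Ier3, Dusp1, Dusp6, Spry1 and Spry2 with 1 each. The stretches printed here show the elements found at Egr2, and the 250 bases before the start of the 3 factor and phosphatase genes with a higher signal in LM8 than in Dunn. They are given 5′ to 3′ on the gene's strand, with matches to the searched motifs in capitals. Egr2 lies at chr10:67537793-67537822 on the plus strand, Ier3 at chr17:35821463-35821712 on the plus strand, Dusp1 at chr17:26508473-26508722 on the minus strand and Dusp6 at chr10:99262981-99263230 on the plus strand.
Egr2: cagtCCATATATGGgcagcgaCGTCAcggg
Ier3: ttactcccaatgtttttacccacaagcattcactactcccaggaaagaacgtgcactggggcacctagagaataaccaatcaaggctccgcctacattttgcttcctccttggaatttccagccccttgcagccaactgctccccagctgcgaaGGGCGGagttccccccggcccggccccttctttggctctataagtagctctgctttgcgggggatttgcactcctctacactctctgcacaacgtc
Dusp1: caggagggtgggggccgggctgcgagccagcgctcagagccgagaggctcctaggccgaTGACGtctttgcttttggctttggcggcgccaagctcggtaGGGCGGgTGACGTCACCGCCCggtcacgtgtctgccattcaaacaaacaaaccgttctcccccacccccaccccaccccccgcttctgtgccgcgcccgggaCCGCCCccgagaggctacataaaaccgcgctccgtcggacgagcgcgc
Dusp6: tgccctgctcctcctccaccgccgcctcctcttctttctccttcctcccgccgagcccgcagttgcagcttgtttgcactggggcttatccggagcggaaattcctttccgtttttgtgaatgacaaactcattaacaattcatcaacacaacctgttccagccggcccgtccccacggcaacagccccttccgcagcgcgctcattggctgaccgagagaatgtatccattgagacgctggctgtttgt

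The motifs searched on both strands were the CArG box, the full cAMP response element TGACGTCA, the core TGACG that it contains, the AP-1 element TGANTCA, the ETS element CCGGAA, the GC box GGGCGG and the EGR element GCGNGGGCG. A GC box can share 5 letters with the end of an EGR element. A CArG box was present in Egr2 alone among the 6 genes, which also has the most windows, and in 1.63% of all 32851 windows of the same length. Of its 4 windows with a match, 3 overlap and share the printed site, so these are 2 distinct sites. In the printed stretch it is followed by a TGACG core on the opposite strand. The full TGACGTCA was present in Dusp1 alone, 143 bases before the start, against 1.79% of all windows, with a further TGACG core 191 bases before the start. The core TGACG alone was in Egr2 and Dusp1, and in 20.8% of all windows. A GC box was found in Egr2, Ier3, Dusp1 and Spry1 (35.7% of all windows), and CCGGAA in Egr2 and Spry2 (14.9%). TGANTCA (7.81% of all windows) and GCGNGGGCG (5.55%) matched none of the 6 genes, and Dusp6 matched no motif searched. These are matches of letters in short windows and show no binding.

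Signals were linear MAS5 intensities. An array's floor was its median over the 45037 non-control probe sets, 21.06 for Dunn and 18.96 for LM8, and a probe set counted as measured if at least 1 line lay above its floor. Signals below the floor were raised to it. Where this applied to the dimmer line, the fold is a minimum and is given as at least N-fold. Of the 15 probe sets, 10 were measured and 5 lay below the floor in both lines, which left 9 measured genes. Differences are given as the log2 ratio of LM8 over Dunn, and genes were counted at a fixed 2-fold. Both arrays were of the same chip type, hybridised and scanned on the same day with the same scanner. The signal ratio of the 3′ to the 5′ control probe set, a measure of RNA integrity, was 0.708 in Dunn and 0.789 in LM8 for Gapdh, and 1.26 and 1.16 for beta-actin. Of 8 measured osteoblast lineage genes, Ibsp and Pth1r were 2-fold lower and 6 lay between, beside 8.84% 2-fold lower of all measured genes. The osteoblast factor Sp7 had signals of 687 and 743. Among markers of other cell types, 1 of 5 endothelial and 3 of 5 epithelial genes were measured, none of them 2-fold apart. Of 7 measured macrophage genes, described further below, 2 were 2-fold lower.

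Egr1 and Dusp4 were the only members at least 2-fold apart, and both were lower in LM8. Among all 11830 measured genes, 8.84% were 2-fold lower and 6.51% 2-fold higher in LM8, beside 2 and 0 of the 9 measured members. By probe set the members gave 2 lower and 0 higher of 10, beside 8.17% and 6.16% of all measured probe sets with 1 gene symbol. Both genes were also more than 4-fold lower, a size that 1.43% of measured genes reached in that direction. The other 7 measured members lay between, and their directions were mixed: Ier3, Dusp1, Dusp6 and Spry2 were higher in LM8 by less than 2-fold, and Ier2, Spry1 and Spry4 lower by less than 2-fold. The median log2 ratio of the 9 was -0.14, beside -0.08 for all measured genes. In total RNA of a culture, fewer expressing cells and less RNA per cell cannot be told apart, nor can the line and the growth state of its culture at harvest.

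**Figure D1:**
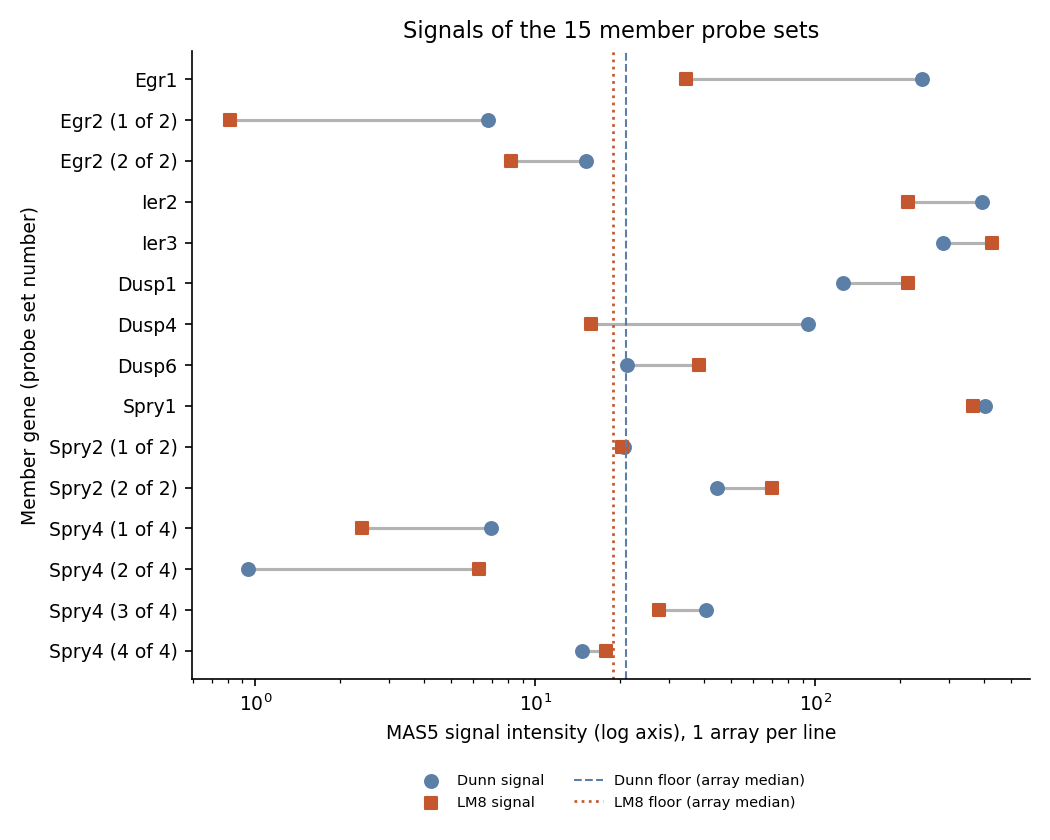
MAS5 signal intensity (log axis) of each of the 15 member probe sets in Dunn (circles) and LM8 (squares), 1 array each, with the floor of each array as a vertical line. Egr1 drops from 239 to 34.5 and Dusp4 from 94.3 to below the LM8 floor, while both Egr2 probe sets and 3 of the 4 for Spry4 lie below both floors.

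Egr1 encodes a zinc finger transcription factor that growth factors and stress induce within minutes. Its 1 probe set had a signal of 239 in Dunn and 34.5 in LM8, above the floor in both. Egr1 was therefore 6.94-fold lower in LM8, a log2 ratio of -2.80, and only 56 of the 11830 measured genes (0.473%, Egr1 included) had a ratio this low as computed with the floors. Without replicates, the nearest stand-in for an error was how far probe sets of the same gene disagreed, an SD in log2 ratio with a median of 0.30 over 5521 genes. It holds technical and isoform differences and no variation between cultures.

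Egr2, a relative of Egr1 that acts in nerve myelination and bone, had no measured probe set, with signals of 6.79 and 15.2 in Dunn and 0.81 and 8.20 in LM8. All these values lay below the floors, so no ratio is given for it. Outside the 10 genes, Egr3 stood at 28.2 in Dunn and below the floor in LM8 (at least 1.49-fold lower), and Egr4 lay below the floor in both lines. Of the 4 EGR genes, Egr1 was thus the 1 that both arrays measured above the floor.

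The other early factors differed less. Ier2, a short nuclear protein gene induced by growth factors, had a signal of 393 in Dunn and 214 in LM8, 1.83-fold lower with a log2 ratio of -0.87. Ier3, whose product modulates survival and ERK dephosphorylation, had signals of 286 and 426, 1.49-fold higher with a log2 ratio of 0.58. Egr1, Ier2 and Ier3, which growth factors are known to induce together, thus lay on both sides of 0. Relative to all measured genes, 11.5% had a ratio at or below that of Ier2 and 15.5% one at or above that of Ier3.

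The 3 phosphatase genes did not share a direction. Dusp4 encodes a nuclear phosphatase that acts on ERK and other MAP kinases. Its 1 probe set had a signal of 94.3 in Dunn and 15.7 in LM8, the latter under the LM8 floor, so it was at least 4.97-fold lower (log2 ratio -2.31, a bound).

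Dusp1 encodes an inducible nuclear phosphatase that prefers the stress kinases p38 and JNK and also acts on ERK. Its signals were 126 in Dunn and 213 in LM8, 1.70-fold higher with a log2 ratio of 0.76. Dusp6 encodes the cytoplasmic phosphatase specific for ERK, and its transcript is widely used as a readout of ERK activity. It had a signal of 21.18 in Dunn, just above the floor, and 38.4 in LM8, 1.81-fold higher with a log2 ratio of 0.86. Both genes were higher in LM8 while Dusp4 was lower, and 10.3% and 8.49% of all measured genes had a ratio at or above those of Dusp1 and Dusp6.

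None of the Sprouty genes was 2-fold apart. Spry1 read 404 in Dunn and 367 in LM8, 1.10-fold lower with a log2 ratio of -0.14. The brighter probe set of Spry2 had signals of 44.5 and 70.1, 1.57-fold higher with a log2 ratio of 0.65, whereas the dimmer one read 20.8 in Dunn, under its floor, and 20.5 in LM8, a log2 ratio of -0.04 after the floor, which is no bound. The Spry2 probe sets thus disagreed by more than is typical of a gene here. Spry4 was measured by 1 of 4 probe sets, with signals of 40.8 and 27.7, 1.47-fold lower with a log2 ratio of -0.56. Its other probe sets ran from 0.94 to 14.7 in Dunn and from 2.41 to 17.9 in LM8, below the floors. With the related inhibitor genes Spred1 and Spred2, none of 5 measured Sprouty and Spred genes was 2-fold apart by its brightest probe set. These log2 ratios ran from -0.56 to 0.65. Over all measured probe sets, Spred1 ran from -1.14 to -0.04 and Spred2 from -0.07 to 0.96.

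**Figure D2:**
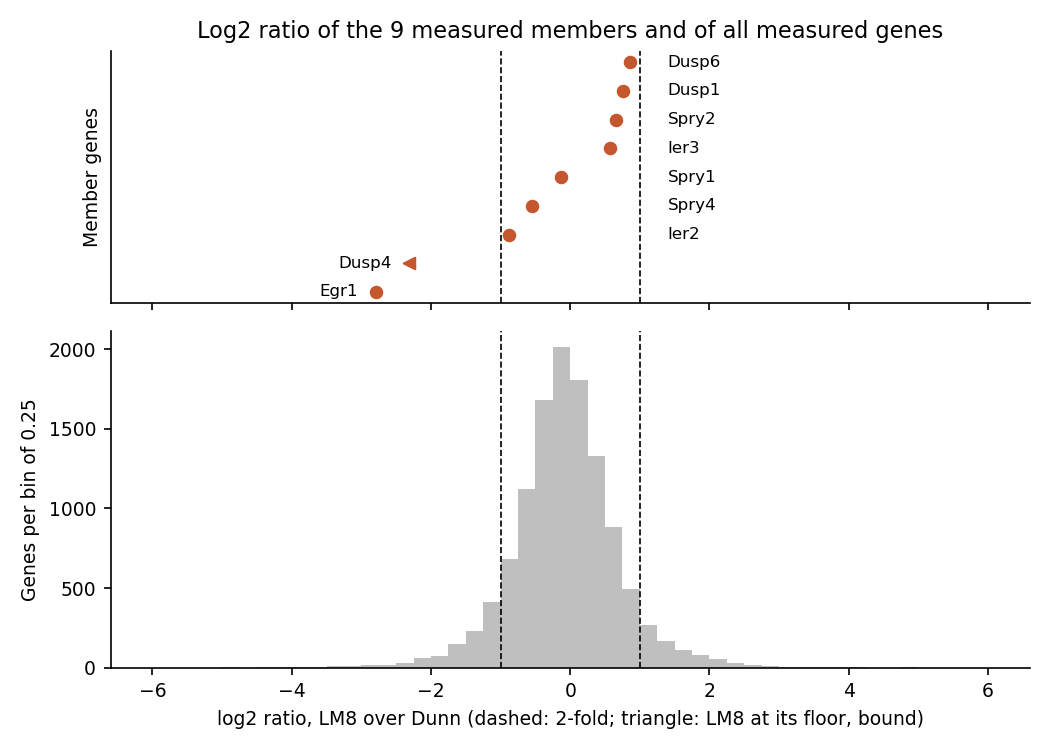
Log2 ratio of LM8 over Dunn for the 9 measured members (top, the triangle marking a bound with LM8 at its floor) and the number of measured genes per bin of 0.25 (bottom); dashed lines mark 2-fold. Egr1 is at -2.80 and Dusp4 at -2.31 (a bound), beside the 11830 genes, and the other 7 lie between -0.87 and 0.86.

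Receptors and adaptors carry signals to RAS and from there to ERK. Of 17 receptor and adaptor genes, 14 were measured, with Fgfr3 2.84-fold higher, Pdgfrb 2.22-fold lower and 12 between (median log2 ratio 0.16), beside 6.51% higher and 8.84% lower of all measured genes. The fibroblast growth factor receptor gene Fgfr3 had signals of 278 and 790, and the platelet-derived growth factor receptor gene Pdgfrb 471 and 212. With scaling on the hybridisation controls Pdgfrb stood at -0.91, short of 2-fold. Of 19 genes of RAS, RAF, MEK, ERK and the kinases they activate, 12 were measured, with Nras 2.20-fold higher, none 2-fold lower and 11 between (median -0.05). The other measured probe sets of Nras had log2 ratios down to 0.47. Calls rest on the brightest probe set, and other measured probe sets reached -1.49 for Araf and 1.07 for Braf. The MEK genes Map2k1 and Map2k2 had log2 ratios of -0.12 and 0.02. The other 7 listed genes were not analysed here.

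Of 38 other early response genes, 33 were measured, with 6 at least 2-fold lower (Fos, Nr4a2, Btg2, Ccn2, Phlda1 and Ptgs2), 2 higher (Fosl1 and Plk3) and 25 between, beside 8.84% lower and 6.51% higher of all measured genes. The split was 4 lower and 2 higher with scaling on array medians, and 3 and 3 on the hybridisation controls. Of all measured genes, 6.55% were lower and 8.66% higher in the first of these scalings, and 5.4% and 10.5% in the second. The median log2 ratio of the 33 early response genes was -0.39, beside -0.08 for all measured genes. Ccn2, a matricellular growth factor gene, was 4.81-fold lower, the cyclooxygenase gene Ptgs2 at least 2.47-fold and Phlda1 2.43-fold lower. The AP-1 subunit gene Fos had signals of 67.5 and 31.3, 2.16-fold lower, but its log2 ratio of -1.11 became -0.96 and -0.87 in those scalings, short of 2-fold. Nr4a2 stood at the threshold, 2.00-fold lower, and its other measured probe sets had log2 ratios up to 0.10. Myc had signals of 1404 and 768, 1.83-fold lower. In the other direction, the AP-1 subunit gene Fosl1 went from 27.5 in Dunn to 312 in LM8, 11.3-fold higher, with a log2 ratio of 2.01 on its other probe set. Plk3 was at least 2.42-fold higher and Jun 1.74-fold higher.

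Of 16 genes for ETS factors and delayed outputs of ERK, 11 were measured, with the ephrin receptor gene Epha2 2.35-fold lower, none 2-fold higher and 10 between (median -0.35). With scaling on the hybridisation controls Epha2 stood at -0.99, short of 2-fold. The cyclin gene Ccnd1 had signals of 2367 and 1800, a log2 ratio of -0.40, and the ETS factor gene Etv5 signals of 69.7 and 54.9, a log2 ratio of -0.35. Etv4 lay below the floor in both lines on both of its probe sets. Dusp6, Spry2 and Spry4 are commonly read together with these genes as transcriptional outputs of ERK, and their log2 ratios of 0.86, 0.65 and -0.56 lay on both sides of that median.

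Among 7 other MAP kinase phosphatase genes, 5 were measured, with 2 higher, none 2-fold lower and 3 between (median 0.19). The shares of all measured genes were 6.51% higher and 8.84% lower. Dusp8, a phosphatase gene for the stress kinases, had a minimum of 3.55-fold higher by its brightest probe set, with a log2 ratio of -0.35 on the other. With the mean over its measured probe sets Dusp8 stood at 0.74, short of 2-fold. Dusp10, which also acts on stress kinases, had signals of 24.6 and 56.8, 2.30-fold higher. With the array median added to every signal, the log2 ratio of Dusp10 was 0.73, short of 2-fold. Dusp5, a nuclear phosphatase gene for ERK counted among the 3 between, was below the floor in LM8 with signals of 29.6 and 10.6, so its 1.56-fold lower value is a minimum. Of 13 other inhibitors, 11 were measured, with Nf1, a RAS inactivator gene, at least 2.02-fold higher, none 2-fold lower and 10 between (median 0.10). Its other measured probe set had a log2 ratio of 0.29. Over all lists of the pathway, 7 of 86 measured genes were 2-fold higher and 8 lower, beside 6.51% and 8.84% of all measured genes. Scaling on array medians made this 8 higher and 6 lower, and scaling on the hybridisation controls 10 higher and 3 lower. Of all measured genes, 8.66% were higher and 6.55% lower in the first of these scalings, and 10.5% and 5.4% in the second.

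**Figure D3:**
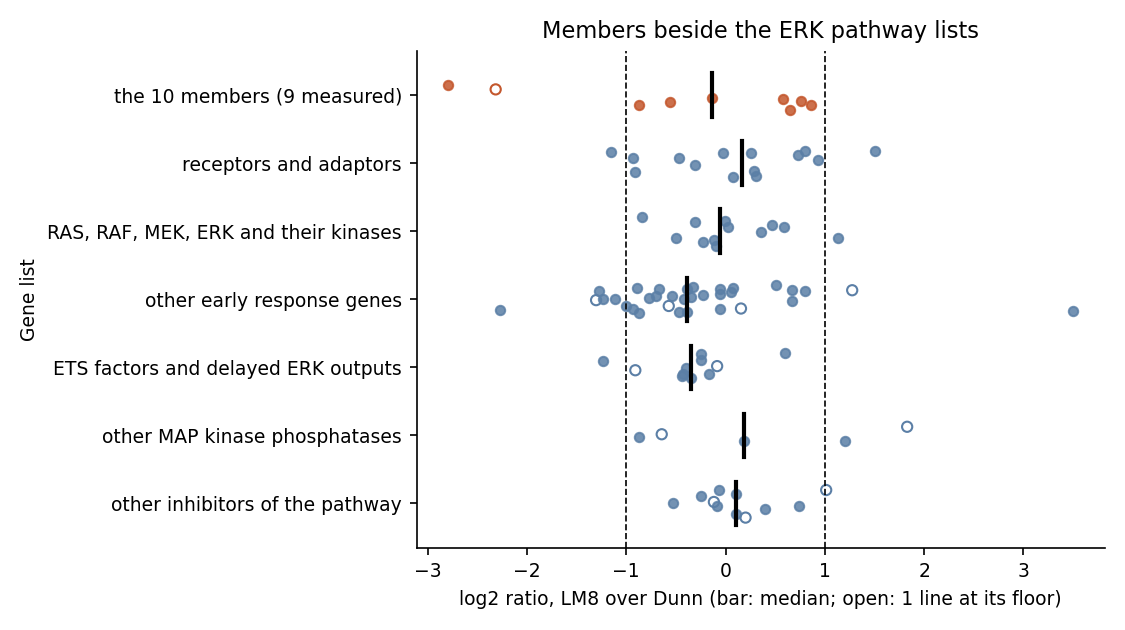
Log2 ratio of LM8 over Dunn for the measured members and for each list of pathway genes; points are genes (open: 1 line at its floor), bars are medians, dashed lines mark 2-fold, and the height within a list carries no meaning. Egr1 is plotted at -2.80 and Fosl1 at 3.50. Open points such as Ptgs2 at -1.30 are bounds that a lower floor moves outward (Ptgs2 to -3.20 with the floor at the 25th percentile). The open points of Epha4 (-0.08) and Il17rd (-0.12) are no bounds.

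Markers of macrophages were compared between the lines as well. Macrophages also express early response genes when activated. Of 9 macrophage genes, 7 were measured, all with a log2 ratio below 0 (-1.49 to -0.28). Csf1r and Lyz2 were 2-fold lower and none was 2-fold higher. Cd68, Adgre1, Lyz2 and Tyrobp were at the floor in LM8 and counted as measured only through Dunn. Their ratios could therefore only fall below 0, so their shared sign carries no information. By their brightest probe sets, Csf1r, Fcer1g and Cd14 lay above both floors, with log2 ratios of -1.49, -0.89 and -0.96. Of all measured genes 8.84% were 2-fold lower, with a median log2 ratio of -0.08. The 3 measured epithelial genes were also all below 0 (-0.60 to -0.14), 2 of them at the floor in LM8 and so bound to fall below 0. The 1 measured endothelial gene stood at 0.00. The 3 probe sets of Csf1r ran from -1.49 to 0.48, on both sides of 0. The summed signal of the 7 macrophage genes was 976 in Dunn and 485 in LM8, of which Fcer1g made up 716 and 387. The pan-leukocyte gene Ptprc and the integrin gene Itgam lay below the floor in both lines. The part of macrophages in the Egr1 and Dusp4 differences was not tested.

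The genes beside Egr1 and Dusp4 on their chromosomes were read against the 8.84% of all measured genes 2-fold lower and the 6.51% 2-fold higher. Of the 20 nearest measured genes to Egr1 on chromosome 18, 10 on each side in RefSeq order, none was 2-fold lower and 3 were higher (median log2 ratio 0.30). Its direct measured neighbours Reep2 and Etf1 had log2 ratios of 0.26 and 0.89. Of the 20 nearest to Dusp4 on chromosome 8, Ppp1r3b and AI429214 were 2-fold lower and none was higher (median 0.07), with -0.63 for Saraf and 0.02 for Tnks beside it. Spry4, also on chromosome 18, had 2 higher and no 2-fold lower gene among its 20 neighbours.

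Egr1 and Dusp4 stayed at least 2-fold lower under every other scaling and floor that measured them. Each has 1 probe set, so the 3 probe set summaries could not change their values. Egr1 lay above both floors, so a lower floor or no floor could not change its value either. Egr1 ran from -2.80 to -1.38 in log2 ratio over 11 alternatives, with the smallest size at a floor on the 75th percentile, where the LM8 value is a bound. Dusp4 ran from -2.58 to -1.73 over 10 alternatives and was not measured with that floor, which 5 members passed. Dusp1 reached 2-fold higher with scaling on the hybridisation controls (1.01), and Dusp6 with scaling on array medians (1.01) or on those controls (1.10). Spry1 turned to the higher side in both of these scalings, at 0.01 and 0.11. They moved the median of all genes from -0.08 to 0.07 and 0.16, so values near 0 have no settled direction.

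**Figure D4:**
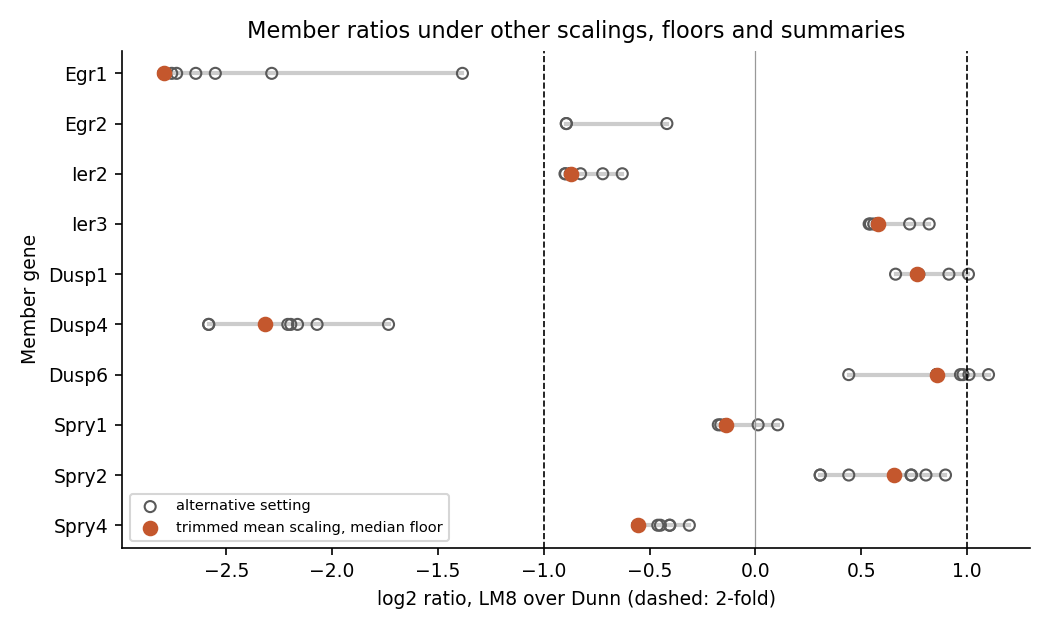
Log2 ratio of LM8 over Dunn of each member under trimmed mean scaling with the median floor (filled) and under each alternative that measured it (open), with dashed lines at 2-fold. Egr1 and Dusp4 lie left of the 2-fold line in each of them, Spry1 crosses 0, and Egr2 has only values from settings with a lower floor or no filter.

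With 2 arrays a gene has a single ratio, so no gene is named for a pattern like that of the members.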

How the data were processed

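The deposited values were intensities on a linear scale; per the submitters' processing notes the authors used MAS5, whose version and settings are not given in the sources used here. The 2% trimmed mean was 100.0 on both arrays. The experiment sheets held text fields (chip type, scanner) and no measurement, per the file headers. The 64 control probe sets were set aside, the rest scaled to a common 2% trimmed mean, and each array's median used as floor. Of 34958 probe sets with 1 gene symbol, 99.4% matched a gene identifier of the GRCm38.p6 table. Each gene was represented by its brightest measured probe set (mean log2 signal). With 1 array per line no test was possible.

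The members and lists were chosen with earlier results of these data known. Named genes were all members, up to 3 genes of each pathway list at the top and bottom among those 2-fold apart, and 9 genes fixed by name; others (markers, neighbours, families, Map2k1, Map2k2) were named after their values were seen. Alternatives were 4 scalings, 4 treatments of dim signals, 3 probe set summaries, and 1.5-fold and 3-fold rules. The steps were tested on simulated arrays. The tools were matplotlib 3.10.9, scipy 1.17.1, numpy 2.4.6, statsmodels 0.14.6 and pandas 2.3.3 under Python 3.11.15.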

Additional observations from a re-analysis of the deposited data

How the results depend on the processing

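The count of 2 members at least 2-fold apart was 4 (2 higher and 2 lower) with scaling on the hybridisation controls, for genes and for probe sets, and 3 with scaling on array medians. A floor at the 75th percentile gave 1 for both, and a 1.5-fold rule 6 for both (3 higher and 3 lower). Of all measured genes, 10.5% were higher and 5.4% lower on the hybridisation controls, and 8.66% and 6.55% on array medians. The floor at the 75th percentile gave 5.13% higher and 5.41% lower, and the 1.5-fold rule 15.3% and 20.3%. With no floor and no filter the count of members was 5 of 15 for probe sets, 3 of them below both floors, and 2 for genes. In that setting 14% of all genes were higher and 18.4% lower. The 15 of 86 pathway genes 2-fold apart became 25 of 100 with the 25th percentile floor and 6 of 60 with the 75th. The count was 29 of 100 with no floor, 36 of 86 with a 1.5-fold rule and 3 of 86 with a 3-fold rule. Shares of all measured genes were 10.2% higher and 15.4% lower with the 25th percentile floor, and 2.49% and 2.84% with the 3-fold rule. Other floors change which genes are measured; no further cause was tested. The median log2 ratio of the members, -0.14, was 0.01 on array medians and 0.11 on the hybridisation controls, and between -0.35 and -0.14 in the other alternatives. Signals near the floor limit Dusp6, Spry2, Spry4 and Egr2. No paired analysis was possible because each line has 1 array.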

Other observations

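Outside the MAP kinase phosphatases, 14 further genes named Dusp had a probe set of their own and 10 were measured; this set was chosen after the values were seen. Dusp14 was at least 2.06-fold higher in LM8, with a signal of 9.50 in Dunn and 43.3 in LM8. Dusp23 had signals of 48.6 and 15.4 and was at least 2.56-fold lower. The other 8 lay between, and the median log2 ratio of the 10 was 0.00.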
